A study of Mus musculus with 15 samples.

Results

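The insulin signalling genes described here are 9 genes of the route from the insulin receptor to the insulin-regulated glucose transporter GLUT4: Insr, Irs1, Irs2, Pik3r1, Akt1, Akt2, Foxo1, Grb14 and Slc2a4. They were taken by name from the raw read counts, which hold 18804 genes, and all 9 were among the 14293 genes with enough reads to be tested. The rule names genes by role and uses no measured value, but the 9 were chosen with earlier results of these data known.

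The libraries came from white adipocytes made in culture from mesenchymal stem cells (MSCs) of C57BL/6J mice. The MSCs came from ear tissue, as the methods describe. The study asked how fat cells adapt to temperatures below 37°C. The cells were differentiated with methylisobutylxanthine, dexamethasone, 5 µg/ml insulin and troglitazone, and were fed serum alone from day 4 of differentiation. In the day 0 group the cells stayed at 37°C, in the day 1 group they moved to 31°C on day 15, in the day 12 group they moved on day 4, and all were harvested on day 16, with 5 libraries per group. No group had received added insulin since day 4, so the values describe cells held in serum, not an acute response to the hormone. The day 12 cells entered the cool incubator on the day on which insulin was withdrawn, and an effect of cool temperature on mature fat cells and one on the later part of differentiation cannot be told apart. Whether replicate libraries stand for different mice or for different dishes of 1 preparation is not given in the sources used here. The p-values therefore measure the spread between libraries, which may be technical.

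Insulin binding switches on the receptor tyrosine kinase INSR, which phosphorylates the docking proteins IRS1 and IRS2. These recruit phosphoinositide 3-kinase through its regulatory subunit p85, and the lipid it makes brings the kinases AKT1 and AKT2 to the membrane. In fat cells AKT2 is the isoform best known for moving GLUT4 vesicles to the cell surface, AKT holds the transcription factor FOXO1 out of the nucleus, and the adaptor GRB14 binds the active receptor and damps it. RNA levels say nothing of phosphorylation or of where GLUT4 sits in the cell.

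Each library held between 64648178 and 133270973 counts assigned to genes, and every library had at least 559 reads for each of the 9 genes. No library of a group was close enough to another to be a second deposit of it. Levels are given as CPM, the reads of a gene scaled to a common library size by the trimmed mean of M-values (TMM), and a gene was called changed when edgeR's quasi-likelihood test gave an adjusted p below 0.05 and the fold change exceeded 1.5. The adipocyte markers were present throughout, with a summed level of 4055 to 4651 CPM at day 0, 4984 to 5545 CPM at day 1 and 4299 to 4838 CPM at day 12 over 8 of 8 listed genes. Their members moved in both directions at each time. At day 12, 4 were called lower, namely Adipoq, the fat cell hormone adiponectin (log2 fold change -1.24), Cidec, a lipid droplet protein (-1.58), Pparg (-0.59) and Lep (-0.69), and 2 higher, Fabp4, a fatty acid binding protein (0.97), and Retn (1.75). At day 1, Cidec (-2.62) and Lep (-0.65) were called lower and Fabp4 (0.76) and Retn (0.66) higher. In bulk RNA, fewer cells of a type and less RNA per cell cannot be told apart, and this holds for each change below.

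**Figure D1:**
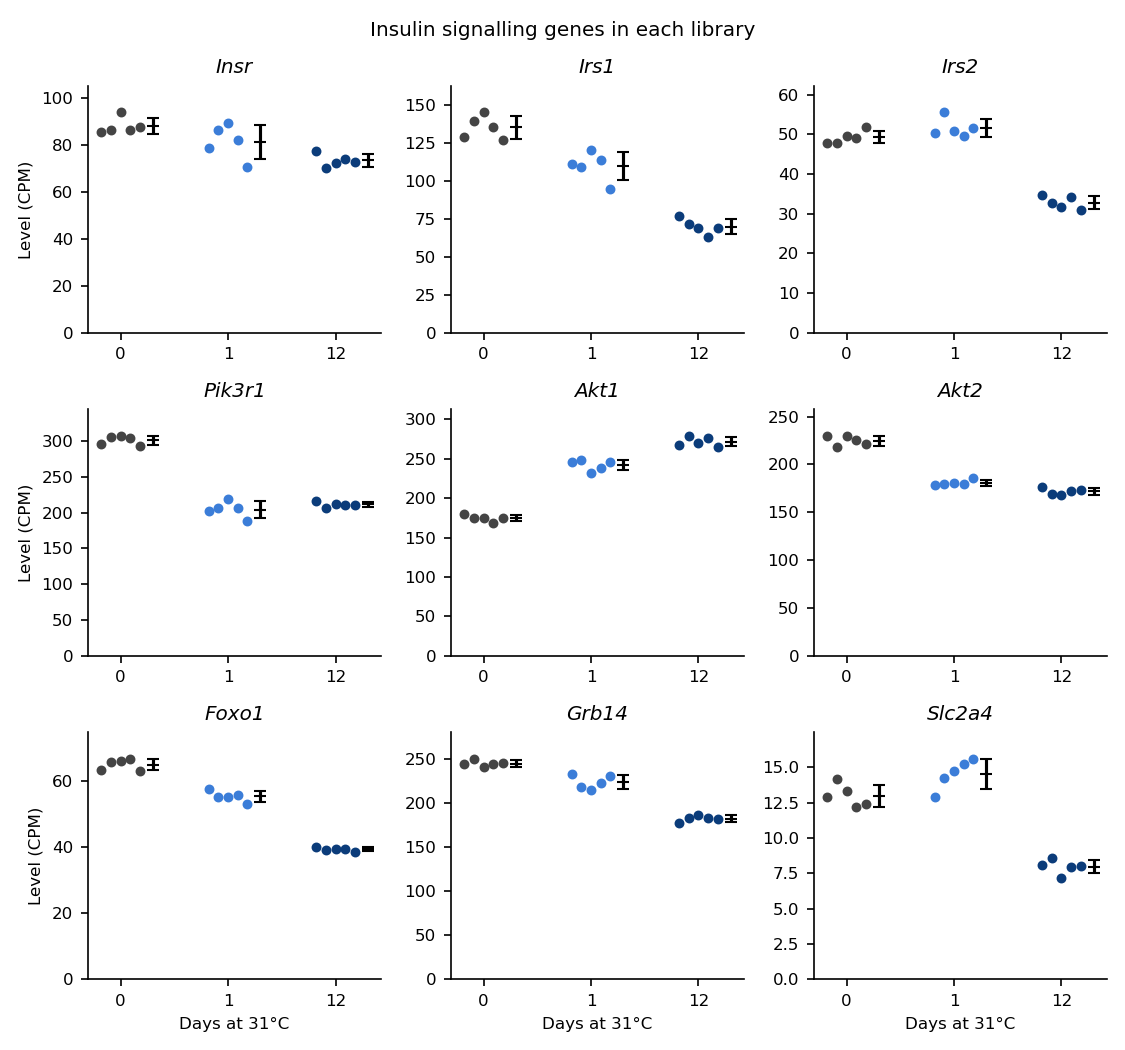
Level of each of the 9 genes in each library in CPM (vertical axes, linear from 0) against days at 31°C (horizontal axes). Points are libraries and the bars beside them show the mean ± SD of 5 libraries. The day 12 points of Irs1, Irs2, Akt2, Foxo1, Grb14 and Slc2a4 lie below every day 0 and day 1 point, and those of Akt1 lie above.

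After 12 days at 31°C, 4 of the 9 genes were called lower (Irs1, Irs2, Foxo1 and Slc2a4) and 1 was called higher (Akt1). Over all tested genes, 16.2% were called lower and 13% higher in the same comparison. By adjusted p alone, without a limit on fold, 8 of the 9 were lower and 1 was higher, where 76.6% of all genes passed in either direction. The median log2 fold change of the 9 was -0.51, against 0.01 for all genes tested. After 1 day none of the 9 was called by edgeR in either direction, against 7.71% of all genes called higher and 13.4% lower. At that time 2 were higher and 6 lower by adjusted p alone, where 71.5% of all genes passed, the unadjusted p gave the same counts of 2 and 6, and DESeq2 also called 0. Between day 1 and day 12, 3 were called lower and 0 higher, against 8.53% and 10.6% of all genes. By adjusted p alone 7 were lower and 1 was higher there, where 67.2% of all genes passed, and DESeq2 called 0 higher as well. These 3 comparisons share libraries, so their counts are not independent of each other.

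**Figure D2:**
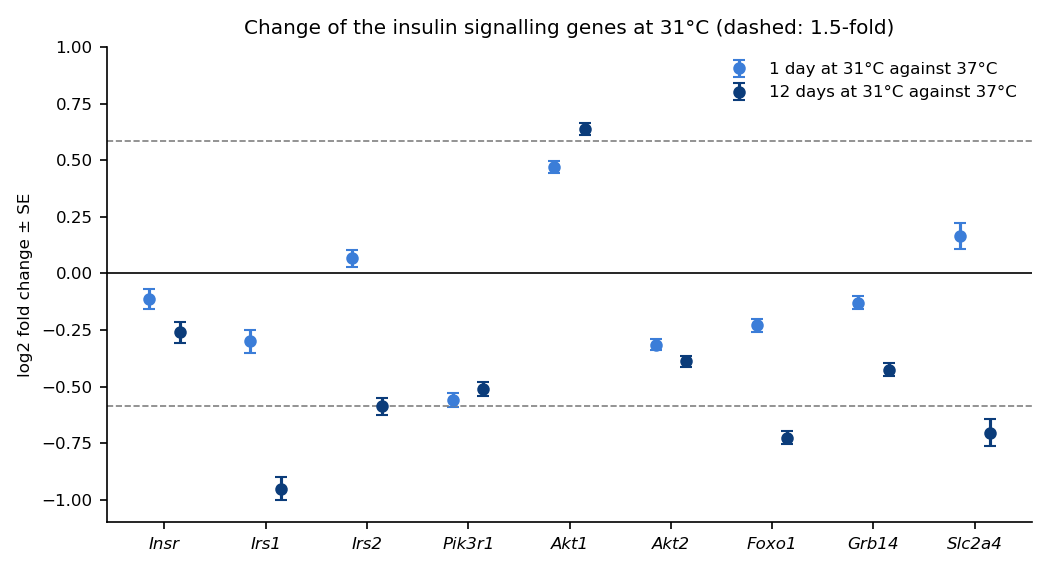
Log2 fold change ± SE (vertical axis) of each of the 9 genes after 1 day and after 12 days at 31°C, each against 37°C, from the edgeR fit over 15 libraries. Dashed lines mark a 1.5-fold change. At 12 days Akt1 lies above the upper line and Irs1, Irs2, Foxo1 and Slc2a4 lie below the lower one, with Irs2 on its edge.

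The scale of the day 12 values depends on how libraries were made comparable. Scaling by total counts in place of TMM put the median log2 fold change of all genes at 0.205 at day 12, where TMM put it at 0.01, and left 1 of the 4 decreases past the fold limit, that of Irs1 (-0.76). That scaling called 2982 of 14293 genes higher and 1668 lower at day 12, where TMM called 1852 and 2320. It also made the smaller differences at day 12 smaller, with -0.07 for Insr (adjusted p = 0.181, edgeR), -0.20 for Akt2, -0.23 for Grb14 and -0.32 for Pik3r1. Scaling to Hprt, Tbp and Ppia, 1 of the sets of reference genes that the study used for PCR, gave 3 decreases, without Irs2. In each of these scalings all 4 genes stayed lower and Akt1 stayed higher than at 37°C.

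Insr encodes the insulin receptor and lies on mouse chromosome 8 at 3122061 to 3279617, minus strand, in the mm10 (GRCm38) build that all gene positions below use. At 37°C its levels were 85.4, 86.2, 93.9, 86.5 and 87.9 CPM. After 1 day they were 78.5, 86.3, 89.3, 82.3 and 70.7 CPM, and after 12 days 77.6, 70.4, 72.4, 74.2 and 72.9 CPM. The day 1 libraries overlapped those at 37°C, while every day 12 library lay below every day 0 library. Its log2 fold change was -0.11 ± 0.05 (SE) at day 1 (adjusted p = 0.0311, edgeR) and -0.26 ± 0.05 at day 12 (adjusted p = 1.62e-05, edgeR), a 1.2-fold decrease that stayed under the fold limit. Among the 9 genes the receptor had the smallest difference at day 12.

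Irs1 and Irs2 encode the docking proteins that carry the signal from the receptor to phosphoinositide 3-kinase. Irs1 lies on chromosome 1 at 82233101 to 82291416 and Irs2 on chromosome 8 at 10984681 to 11008458, both on the minus strand. Both were called lower at day 12, and neither at day 1. Their promoters are shown because both genes were called lower at day 12, as the 250 bases upstream of the RefSeq start in GRCm38.p6, 5′ to 3′ on the gene's strand (chr1:82291440-82291689 and chr8:11008930-11009179, minus strand). Capitals mark 3 motifs. The GC box reads GGGCGG, which on the other strand is CCGCCC. The CCAAT box reads ATTGG on the other strand, and the E box reads CANNTG.
Irs1: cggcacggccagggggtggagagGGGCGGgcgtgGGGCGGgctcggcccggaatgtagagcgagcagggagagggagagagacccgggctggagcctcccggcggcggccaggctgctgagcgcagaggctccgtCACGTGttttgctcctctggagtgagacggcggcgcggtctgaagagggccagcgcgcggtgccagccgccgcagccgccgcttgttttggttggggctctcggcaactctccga
Irs2: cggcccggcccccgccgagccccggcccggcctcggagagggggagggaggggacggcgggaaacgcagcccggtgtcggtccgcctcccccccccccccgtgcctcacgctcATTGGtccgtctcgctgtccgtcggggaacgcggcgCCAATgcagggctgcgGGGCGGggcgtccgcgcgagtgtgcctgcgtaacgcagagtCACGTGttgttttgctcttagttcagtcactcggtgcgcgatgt
Each window held 1 E box, at -115 for Irs1 and at -44 for Irs2, counted to the first base of the match from the start. Both matches read CACGTG. E boxes stood in 66.2% of all 32851 mouse promoter windows searched on both strands, GC boxes in 32.7% and CCAAT boxes in 33.8%. Neither window held the FOXO motif GTAAACA or TGTTTAC, which stood in 3.17% of all windows.

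Irs1 had the largest decrease of the 9 genes at day 12. Its levels at 37°C were 129, 140.0, 145, 136 and 127 CPM. They were 111, 109, 120.4, 114 and 95.1 CPM after 1 day and 76.7, 71.8, 68.9, 63.1 and 69.3 CPM after 12 days. No library of any group overlapped another group, so the order of the groups was 0, 1 and 12 days from high to low. The fitted log2 fold change was -0.30 ± 0.05 (SE) at day 1 (adjusted p = 1.53e-05, edgeR) and -0.95 ± 0.05 at day 12 (adjusted p = 3.44e-14, edgeR), a 1.93-fold decrease. Day 12 was also below day 1, with a log2 fold change of -0.65 ± 0.05 (adjusted p = 9.17e-11, edgeR). Of the exon bases of Irs1, 30.9% lie under Gm9747 on the opposite strand. Whether the authors counted with strand is not stated, so reads of Irs1 and of that gene cannot be told apart there, and Gm9747 is not a row of the counts.

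Irs2 stood close to its 37°C level after 1 day and was lower after 12. At 37°C its levels were 47.9, 47.9, 49.5, 49.2 and 51.8 CPM. After 1 day they were 50.3, 55.5, 50.9, 49.6 and 51.7 CPM, and after 12 days 34.7, 32.6, 31.6, 34.1 and 31.0 CPM. The day 1 libraries overlapped those at 37°C, while no day 12 library reached the other groups. In the edgeR fit the log2 fold change was 0.07 ± 0.04 (SE) at day 1 (adjusted p = 0.109, edgeR) and -0.59 ± 0.04 at day 12 (adjusted p = 5.66e-13, edgeR), a 1.5-fold decrease that passed the fold limit only narrowly. Against day 1 the day 12 value was -0.65 ± 0.04 (adjusted p = 1.7e-13, edgeR). The day 12 call was lost when any 1 of 5 libraries was left out, at -0.58 without day 0 library 3, -0.57 without day 0 library 5, and -0.58, -0.57 and -0.57 without day 12 library 2, 3 or 5. The fold limit was also missed with total counts (-0.39), with reference genes (-0.53), with no filter on low counts (-0.58) and in the 11 libraries whose numbers in the titles form 1 series (-0.55). The direction held in each of these.

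Because both docking protein genes sit in the same library, their ratio does not depend on library scaling. Per kilobase of merged exon, Irs1 stood 1.9-fold above Irs2 at 37°C (1.7 to 2.03 over libraries), 1.47-fold at day 1 (1.27 to 1.64) and 1.47-fold at day 12 (1.28 to 1.54). The log2 ratio of their counts fell by 0.37 at day 1 and by 0.37 at day 12 (exact two-sided permutation test, p = 0.0079 for each, adjusted p = 0.0158 over 12 ratio tests). Between day 1 and day 12 it differed by 0.002 (exact permutation p = 0.976). So Irs1 fell relative to Irs2 by day 1, and both stood lower at day 12 with nearly the same ratio as at day 1. With 5 libraries against 5, 0.0079 is the smallest p that this test can give.

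Pik3r1 encodes the p85α family of regulatory subunits of phosphoinositide 3-kinase (chromosome 13, 101680563 to 101768217, minus strand). Its levels at 37°C were 296, 305, 307, 303 and 293 CPM. They were 203, 206, 219, 206 and 188 CPM after 1 day and 217, 207, 213, 210.1 and 211 CPM after 12 days. Both cool groups lay wholly below the day 0 libraries and overlapped each other. On the log2 scale the fold change was -0.56 ± 0.03 (SE) at day 1 (adjusted p = 8.03e-14, edgeR) and -0.51 ± 0.03 at day 12 (adjusted p = 2.73e-13, edgeR). Day 12 against day 1 gave 0.05 ± 0.03 (adjusted p = 0.162, edgeR). That value was 0.223 with total counts (adjusted p = 1.09e-06, edgeR) and 0.205 with reference genes (adjusted p = 5.47e-06, edgeR). The median of all genes in those scalings was 0.182 and 0.163. Pik3r1 thus had the largest difference of the 9 genes at day 1, at 1.47-fold, just under the fold limit. It passed that limit at day 1 with reference gene scaling (-0.66) and when genes under a mean of 10 CPM were left out (-0.60).

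Of the AKT kinase genes, Akt1 rose and Akt2 stood lower at day 12. Akt1 (chromosome 12, 112653821 to 112674884, minus strand) encodes the isoform known chiefly for growth and survival, and Akt2 (chromosome 7, 27591552 to 27640826, plus strand) the isoform tied to glucose uptake in fat and muscle. Akt1 stood at 179, 175, 175, 169 and 175 CPM at 37°C, 245, 248, 232, 238 and 245 CPM after 1 day and 268, 279, 269.6, 276 and 265 CPM after 12 days. The 3 groups did not overlap, and the order from low to high was 0, 1 and 12 days. Its log2 fold change was 0.47 ± 0.03 (SE) at day 1 (adjusted p = 6.43e-14, edgeR) and 0.64 ± 0.03 at day 12 (adjusted p = 9.36e-17, edgeR), a 1.56-fold increase and the only one called among the 9 genes. Akt2 stood at 229.8, 218, 230.2, 225 and 221 CPM at 37°C, 179, 179, 181, 179 and 186 CPM after 1 day and 177, 169, 168, 172 and 174 CPM after 12 days. These groups did not overlap either, with the day 1 and day 12 libraries close together. The fitted log2 fold change was -0.315 ± 0.025 (SE) at day 1 (adjusted p = 4.74e-11, edgeR) and -0.39 ± 0.025 at day 12 (adjusted p = 6.14e-13, edgeR), a 1.31-fold decrease under the fold limit. From day 1 to day 12 Akt2 differed by -0.07 with TMM scaling, but by 0.10 with total counts and 0.08 with reference genes, so its direction between the cool groups was set by the scaling.

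Within each library, the log2 ratio of Akt2 to Akt1 counts fell from 0.37 ± 0.04 (SD, n = 5) at 37°C to -0.42 ± 0.04 at day 1 and -0.66 ± 0.05 at day 12. The differences from 37°C were -0.78 and -1.03, and that between day 12 and day 1 was -0.24 (exact two-sided permutation test, p = 0.0079 for each, adjusted p = 0.0158). Per kilobase of exon, Akt1 exceeded Akt2 by 1.35-fold at 37°C (1.3 to 1.4 over libraries), by 2.33-fold at day 1 (2.23 to 2.4) and by 2.75-fold at day 12 (2.63 to 2.87). Against 37°C the ratio of counts changed 1.72-fold at day 1 and 2.04-fold at day 12. This ratio is free of library scaling and had the largest change of the 4 ratios tested. It shows unequal change of the pair, not which of them moved.

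**Figure D3:**
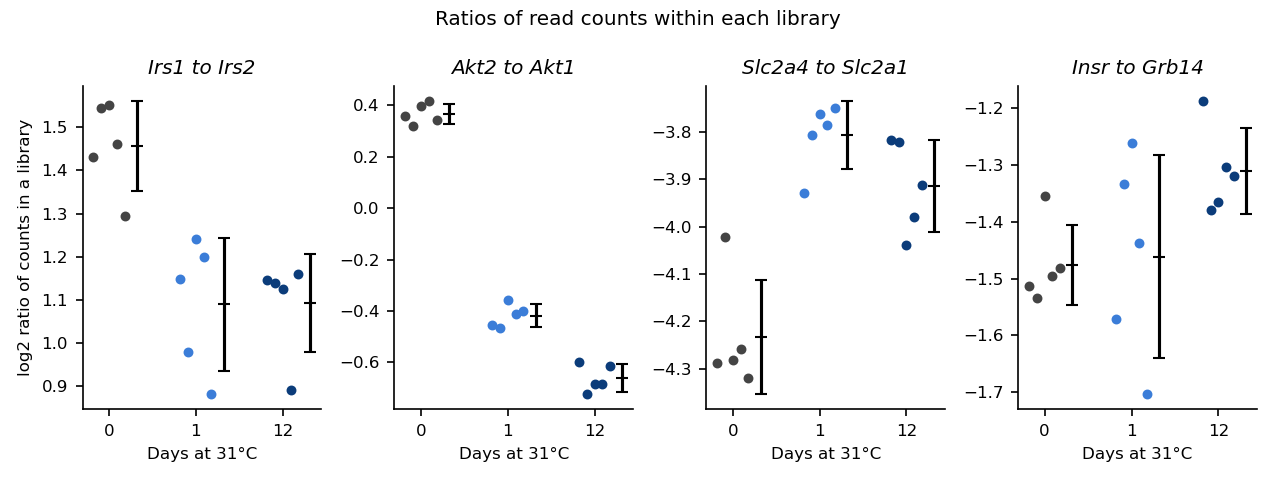
Log2 ratio of read counts of 2 genes within each library (vertical axes, each panel with its own range, not starting at 0) against days at 31°C. Points are libraries and bars give the mean ± SD of 5. For Akt2 to Akt1 the 3 groups are fully apart, at 0.37, -0.42 and -0.66 on average, while for Insr to Grb14 the groups overlap.

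The promoter of Akt1 is shown because Akt1 was the 1 gene called higher and because 1 of its windows held the only FOXO match among the genes described. RefSeq gives Akt1 more than 1 start, and the window shown is upstream of the outermost (chr12:112674885-112675134, minus strand). The other Akt1 window (chr12:112674277-112674526) held 4 GC boxes but no FOXO motif and no E box. Capitals mark the FOXO motif and an E box.
Akt1: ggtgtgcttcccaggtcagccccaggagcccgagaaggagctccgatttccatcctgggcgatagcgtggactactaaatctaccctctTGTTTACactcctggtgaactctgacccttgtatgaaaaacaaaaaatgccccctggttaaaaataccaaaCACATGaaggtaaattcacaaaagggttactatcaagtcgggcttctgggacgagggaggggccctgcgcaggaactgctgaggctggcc
The FOXO match, read as TGTTTAC on the gene's strand, began at -161 and the E box CACATG at -90. A match of letters is a description of the window and does not show that a factor binds there. Promoter windows were found for 7 of the 9 genes, 12 windows in all, and Insr and Slc2a4 had none in the table used.

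Foxo1 encodes the transcription factor that AKT keeps out of the nucleus and that acts on many fasting genes (chromosome 3, 52268336 to 52353221, plus strand). Its levels at 37°C were 63.5, 65.7, 66.0, 66.8 and 63.1 CPM. They were 57.7, 55.3, 55.1, 55.9 and 53.2 CPM after 1 day and 40.1, 39.1, 39.5, 39.4 and 38.5 CPM after 12 days. No group overlapped another, and the day 12 libraries lay closest together of the 3. In the edgeR fit the log2 fold change was -0.23 ± 0.03 (SE) at day 1 (adjusted p = 1.34e-07, edgeR) and -0.72 ± 0.03 at day 12 (adjusted p = 7.12e-17, edgeR), a 1.65-fold decrease. With total counts the day 12 value was -0.53, under the fold limit. Its promoter is shown as that of another gene called lower at day 12 (chr3:52268087-52268336, plus strand).
Foxo1: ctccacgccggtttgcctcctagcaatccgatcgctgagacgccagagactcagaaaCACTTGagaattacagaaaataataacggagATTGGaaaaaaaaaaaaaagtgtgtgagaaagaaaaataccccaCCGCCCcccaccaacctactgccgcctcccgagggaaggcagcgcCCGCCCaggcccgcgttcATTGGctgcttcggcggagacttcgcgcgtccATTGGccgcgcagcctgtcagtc
Capitals mark 1 E box at -193, 3 CCAAT boxes and 2 GC boxes, and the window held no FOXO motif. Of the exon bases of Foxo1, 7.78% overlap Gm20402, and reads there cannot be told apart without strand.

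Grb14 encodes the adaptor that binds the active insulin receptor and inhibits it (chromosome 2, 64912476 to 65024987, minus strand). Its levels were 244, 249.98, 240.3, 244 and 246 CPM at 37°C, 233, 218, 214, 223 and 230.5 CPM after 1 day and 177, 183, 187, 183 and 182 CPM after 12 days. The 3 groups did not overlap and stood in the order 0, 1 and 12 days from high to low. On the log2 scale the fold change was -0.13 ± 0.03 (SE) at day 1 (adjusted p = 0.000133, edgeR) and -0.42 ± 0.03 at day 12 (adjusted p = 4.06e-13, edgeR), a 1.34-fold decrease under the fold limit. Receptor and inhibitor thus both stood lower at day 12. The log2 ratio of Insr to Grb14 counts rose by 0.17 at day 12 (exact two-sided permutation test, p = 0.0238, adjusted p = 0.0357), with overlapping libraries. At day 1 it differed by 0.01 (exact permutation p = 0.849). The day 12 difference lost its call, with an exact permutation test adjusted p of 0.0714, when any 1 of 7 libraries was left out (day 0 library 1, 2, 4 or 5, or day 12 library 1, 4 or 5), with values of 0.13 to 0.17.

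Slc2a4 encodes GLUT4, the transporter that insulin moves to the surface of fat and muscle cells (chromosome 11, 69942539 to 69948188, minus strand). It had the lowest level of the 9 genes, with 559 to 1627 reads per library. At 37°C the 5 libraries stood at 12.9, 14.2, 13.3, 12.2 and 12.4 CPM. After 1 day they stood at 12.9, 14.2, 14.8, 15.2 and 15.6 CPM, and after 12 days at 8.11, 8.55, 7.20, 7.97 and 8.05 CPM. The day 1 libraries overlapped those at 37°C and lay somewhat higher on average, while every day 12 library was below every other. The log2 fold change was 0.16 ± 0.06 (SE) at day 1 (adjusted p = 0.0136, edgeR), -0.70 ± 0.06 at day 12 (adjusted p = 1.17e-10, edgeR) and -0.87 ± 0.06 from day 1 to day 12 (adjusted p = 4.91e-12, edgeR). The decrease was 1.63-fold against 37°C and 1.82-fold against day 1, the largest of the 9 genes between the cool groups. With total counts the day 12 value was -0.51, under the fold limit. The day 1 value did not pass the test with reference genes (0.07, adjusted p = 0.35, edgeR), in the series of 11 libraries alone (0.09, adjusted p = 0.278, edgeR) or when genes under a mean of 10 CPM were dropped (0.12, adjusted p = 0.0655, edgeR).

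Slc2a4 is also a gene of muscle, and MSC cultures can hold other cell types. The skeletal muscle markers summed to 1.21 to 1.86 CPM at 37°C, 0.627 to 1.1 CPM at day 1 and 0.314 to 0.765 CPM at day 12, over 7 measured genes. Of these, Myog, Pax7, Ckm and Myh4 had at most 10 counts in every library, and at 37°C the level came mostly from Des (1.07 CPM there and 0.217 CPM at day 12). The cartilage markers summed to 3681 to 4416 CPM at 37°C, 3925 to 4081 CPM at day 1 and 1153 to 1250 CPM at day 12, chiefly through Comp, at 3717 CPM on average at 37°C and 919 CPM at day 12. Among them Acan and Sox9 fell as well, while Col9a1 rose and Col2a1 stood at 149 CPM at 37°C and 182 CPM at day 12. The mesothelial list summed to 2.06 to 2.25 CPM at 37°C and 23.4 to 38.3 CPM at day 12, chiefly through Msln, while Upk3b and Wt1 had at most 10 counts in every library. The stromal progenitor markers summed to 1340 to 1397 CPM at 37°C, 1399 to 1476 CPM at day 1 and 1132 to 1165 CPM at day 12, while the macrophage, endothelial and keratinocyte lists summed to at most 13.04 CPM in any library. The part of these lists in the changes of the 9 genes was not tested.

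**Figure D4:**
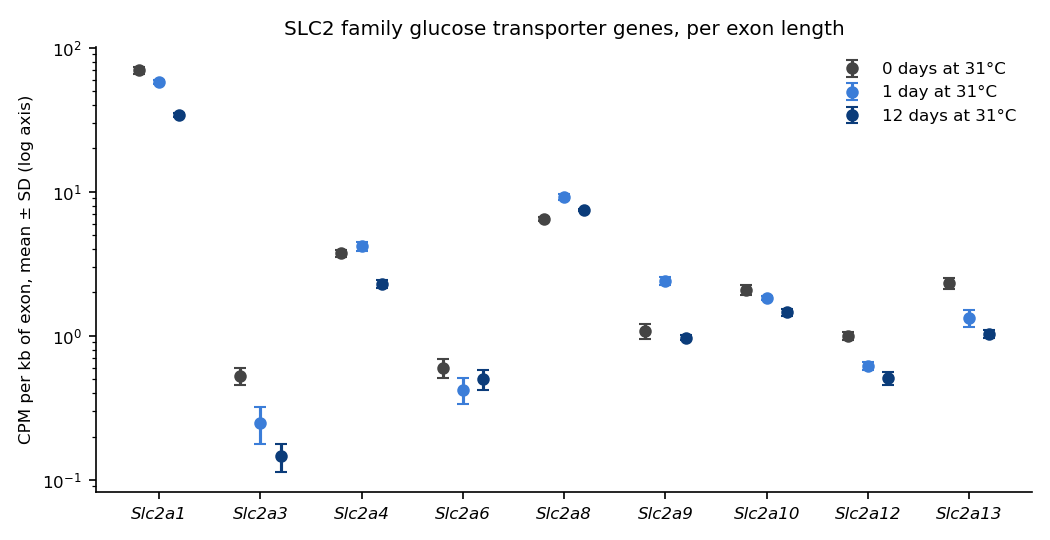
Level of each tested gene of the SLC2 glucose transporter family in CPM per kilobase of exon (vertical axis, logarithmic) at 0, 1 and 12 days at 31°C, as mean ± SD of 5 libraries. Slc2a1 stands highest in each group, 69.7 at 37°C against 3.74 for Slc2a4, and both are lowest at day 12.

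Slc2a4 was not the main glucose transporter transcript in these cells. Slc2a1, which encodes the basal transporter GLUT1, stood 18.7-fold above Slc2a4 per kilobase of exon at 37°C (16.1 to 19.8 over libraries), 13.9-fold at day 1 and 14.9-fold at day 12. Slc2a1 itself fell from 244 ± 12 CPM (SD, n = 5) at 37°C to 203 ± 6.4 CPM at day 1 and 120 ± 4.2 CPM at day 12, a log2 fold change of -1.02 ± 0.03 (SE) at day 12 (adjusted p = 1.65e-18, edgeR). The log2 ratio of Slc2a4 to Slc2a1 counts rose by 0.43 at day 1 (exact two-sided permutation test, p = 0.0079, adjusted p = 0.0158) and by 0.32 at day 12 (exact permutation p = 0.0159, adjusted p = 0.0273). So at day 12 Slc2a4 had fallen less than Slc2a1. That day 12 difference did not pass, at an exact permutation test adjusted p of 0.0543, when any 1 of 6 libraries was left out (day 0 library 1, 4 or 5, or day 12 library 1, 4 or 5), with values of 0.30 to 0.34. Between day 1 and day 12 it differed by -0.11 (exact permutation p = 0.0794, adjusted p = 0.106), and without day 1 library 1 by -0.14 (exact permutation test, adjusted p = 0.0239).

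Of the other SLC2 family genes, 8 were tested, of which 4 were called lower and 0 higher at day 12, where 16.2% of all genes were called lower and 13% higher. DESeq2 gave the same 4 and 0 as counts, and at an unadjusted p below 0.05 edgeR gave 5 lower and 1 higher. The median log2 fold change was -0.75, against 0.01 for all genes. Total counts and reference gene scaling each gave 4 lower and 0 higher. The called genes were Slc2a1, Slc2a12 (log2 fold change -0.98), which was named after its values were seen to complete the count, Slc2a13, which encodes a proton and myo-inositol cotransporter (-1.17), and Slc2a3, which encodes GLUT3 (-1.84). Slc2a3 was a rare transcript, at 3.82 ± 0.51 CPM at 37°C and 1.06 ± 0.24 CPM at day 12. Slc2a9, which encodes a urate transporter and was named after its values were seen, rose at day 1 (log2 fold change 1.16, adjusted p = 8.79e-13, edgeR) and differed by -0.15 at day 12 (adjusted p = 0.0849, edgeR).

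Per kilobase of merged exon, the order of the 9 genes at 37°C ran from Akt1 (42.6 ± 0.92 CPM per kb, SD, n = 5) through Grb14 (34.1 ± 0.49), Akt2 (31.5 ± 0.75), Pik3r1 (29.9 ± 0.61), Irs1 (14.8 ± 0.83), Irs2 (7.79 ± 0.25), Foxo1 (7.5 ± 0.19) and Insr (6.4 ± 0.25) to Slc2a4 (3.74 ± 0.22). The neighbours Irs2 and Foxo1 overlapped between libraries, and no other neighbours did. At day 1 the order was the same, and Foxo1 and Insr overlapped there. At day 12 Akt1 stood at 66.3 ± 1.4 CPM per kb, Grb14 (25.4 ± 0.50) and Akt2 (24.1 ± 0.50) overlapped, and Insr (5.35 ± 0.19) and Irs2 (5.19 ± 0.25) overlapped. Foxo1 (4.54 ± 0.07) and Slc2a4 (2.29 ± 0.14) stood last. Akt1 was first and Slc2a4 last in each of the 3 groups.

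The nearest relatives of the 9 genes stood in several directions at day 12. Igf1r, the receptor for insulin-like growth factor, differed by 0.05 at day 12 (adjusted p = 0.327, edgeR) where Insr was lower. Irs3, a docking protein found in rodent fat, fell furthest of the family, from 1.86 ± 0.23 CPM (SD, n = 5) at 37°C to 0.583 ± 0.066 CPM at day 12, a log2 fold change of -1.67 ± 0.15 (SE, adjusted p = 6.9e-10, edgeR). Irs4 was too rare to test, with no library above 6 counts. The regulatory subunit genes Pik3r2 (log2 fold change 0.44) and Pik3r3 (0.39) stood higher at day 12 where Pik3r1 stood lower, each under the fold limit. For Pik3r3, 24.3% of exon bases overlap Gm49337. Grb10, the near relative of Grb14, differed by 0.07 (adjusted p = 0.157, edgeR). With total counts Pik3r2 passed the fold limit (0.63), Igf1r differed by 0.24 and Grb10 by 0.26.

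Of the other FOXO genes, Foxo3 fell from 54.5 ± 2.2 CPM (SD, n = 5) at 37°C to 35.2 ± 1.6 CPM at day 1 and stood at 35.4 ± 2.0 CPM at day 12, log2 fold changes of -0.63 and -0.62 (adjusted p = 8.62e-13 and 6.55e-13, edgeR). Foxo4 fell from 32.9 ± 1.2 CPM to 21.5 ± 1.3 CPM at day 1 and stood at 32.5 ± 2.1 CPM at day 12, where it differed by -0.02 (adjusted p = 0.732, edgeR). Its day 12 libraries were higher than those of day 1, by a log2 fold change of 0.59 (adjusted p = 5.96e-11, edgeR). For Foxo1 the difference of day 12 from day 1 (-0.50) was larger than that of day 1 from 37°C (-0.23). The cool groups were moved on different days of differentiation, so these values do not date the decrease. With total counts Foxo3 was at -0.43 at day 12, under the fold limit, and Foxo4 at 0.18.

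**Figure D5:**
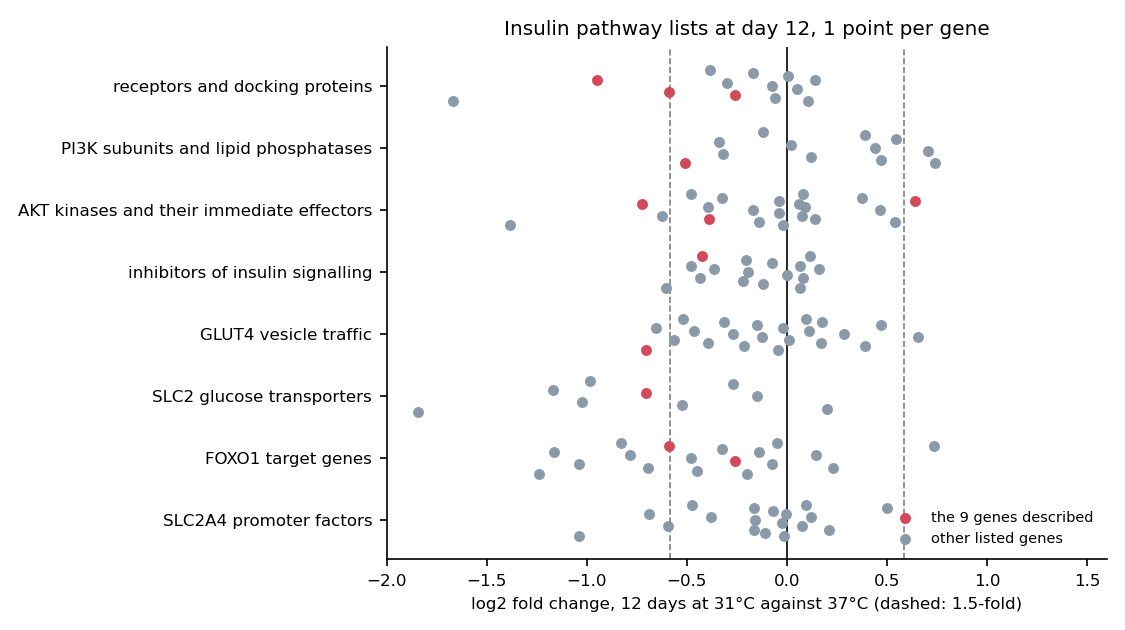
Log2 fold change at 12 days at 31°C against 37°C (horizontal axis) for every tested gene of 8 lists of insulin pathway genes, 1 point per gene in each list, with the 9 genes described in red. Dashed lines mark a 1.5-fold change, and the vertical scatter within a list only separates points. Most points lie between the dashed lines, and those outside lie mostly to the left.

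Around the 9 genes, 127 further genes of the pathway were listed, of which 115 were tested. At day 12, 4 of them were called higher and 17 lower by edgeR, where 13% and 16.2% of all genes were called. At day 1 the counts were 2 higher and 14 lower, where 7.71% and 13.4% of all genes were called. From day 1 to day 12 they were 4 and 9, where 10.6% and 8.53% of all genes were called. Their median log2 fold change at day 12 was -0.08, against 0.01 for all genes. Total counts turned the day 12 split to 11 higher and 11 lower, where that scaling called 2982 of 14293 genes higher and 1668 lower.

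The counts of the single lists at day 12 stand beside the same 13% of all genes called higher and 16.2% lower. Among receptors and docking proteins 1 of 10 tested genes was called, Irs3, which was lower. Among phosphoinositide 3-kinase subunits and lipid phosphatases 2 of 11 were called higher and 0 lower, with DESeq2 giving the same counts and an unadjusted p below 0.05 giving 7 higher and 3 lower. These were Inpp5k, a phosphatase that removes the lipid signal (log2 fold change 0.74 ± 0.03, SE, adjusted p = 1.21e-15, edgeR), and Inpp4b, a rare transcript for another phosphoinositide phosphatase, named after its values were seen to complete the count, at 0.79 CPM at 37°C and 1.29 CPM at day 12. The median of this list was 0.39 at day 12, against 0.01 for all genes. Total counts called 5 higher and 0 lower, where that scaling called 2982 of 14293 genes higher and 1668 lower. The list median was then 0.58, against 0.205 for all genes. In the list of AKT kinases and their immediate effectors 2 of 18 were called lower and 0 higher, again the same in DESeq2, with 7 lower and 6 higher at an unadjusted p below 0.05. That split depended on the scaling, since total counts called 1 lower and 2 higher and reference genes 1 lower and 1 higher. The list median was -0.03, against 0.16 with total counts and 0.03 with reference genes. For all genes the median was 0.01, 0.205 and 0.07 in the same order, above that of the list each time. Tbc1d4, which encodes AS160, the AKT substrate that holds GLUT4 vesicles back until it is phosphorylated, fell from 27.3 ± 0.71 CPM (SD, n = 5) at 37°C to 15.2 ± 0.40 CPM at day 1 and 10.4 ± 0.68 CPM at day 12. Its log2 fold change was -0.84 ± 0.04 (SE) at day 1 and -1.38 ± 0.04 at day 12 (adjusted p = 8.41e-19, edgeR). Its relative Tbc1d1, named after its values were seen, stood at 17.2 ± 0.87 CPM at 37°C and 25.1 ± 1.3 CPM at day 12, a log2 fold change of 0.54 under the fold limit. Foxo3 was the other gene called.

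Among inhibitors of insulin signalling 1 of 15 was called lower and 0 higher at day 12, as in DESeq2, with 9 lower and 2 higher at an unadjusted p below 0.05, where 16.2% of all genes were called lower and 13% higher. It was Socs3, a feedback inhibitor of cytokine and insulin receptors, which fell from 89.9 ± 4.6 CPM (SD, n = 5) to 59.1 ± 2.2 CPM (log2 fold change -0.61, adjusted p = 2.39e-13, edgeR). In GLUT4 vesicle traffic 1 of 21 was called higher and 1 lower. Its median log2 fold change was -0.04, with 0.15 under total counts, which called 2 higher and 0 lower, and 0.01 under reference genes. The median of all genes moved likewise, at 0.01, 0.205 and 0.07, and stood above that of the list in each scaling. Rgl2, an activator of the RAL GTPase family, rose from 20.5 ± 0.49 CPM to 32.2 ± 1.2 CPM (log2 fold change 0.65, adjusted p = 1.1e-13, edgeR). Lnpep, the aminopeptidase IRAP that travels in GLUT4 vesicles, fell from 111 ± 4.2 CPM to 70.9 ± 3.4 CPM (log2 fold change -0.65, adjusted p = 4.4e-09, edgeR). Vamp2, the vesicle SNARE of GLUT4 exocytosis and named after its values were seen, stood at 80.0 ± 2.8 CPM at 37°C, 85.5 ± 1.5 CPM at day 1 and 54.2 ± 2.1 CPM at day 12. With total counts Socs3 (-0.41) and Lnpep (-0.46) did not pass the fold limit.

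Of 16 tested genes listed as targets of FOXO1, beside Insr and Irs2, 6 were called lower and 1 higher at day 12, where 16.2% and 13% of all genes were. DESeq2 gave the same counts. The median log2 fold change was -0.39, against 0.01 for all genes. With total counts 5 were called lower and 1 higher, with a list median of -0.20, where the median of all genes was 0.205. Pdk4, a kinase that shuts pyruvate dehydrogenase in fasting, stood at 40.7 ± 4.5 CPM (SD, n = 5) at 37°C, 39.0 ± 5.2 CPM at day 1 and 17.2 ± 0.47 CPM at day 12 (log2 fold change -1.24, adjusted p = 1.92e-13, edgeR). Gadd45a, a growth arrest gene, fell by 1.16 on the log2 scale, with 19.1% of its exon bases under E230016M11Rik. Klf15, a fasting-induced zinc finger factor, fell by 1.04. Pnpla2, which encodes the triglyceride lipase ATGL, rose from 258 ± 5.4 CPM to 430.0 ± 24 CPM (log2 fold change 0.73, adjusted p = 5.78e-16, edgeR). Of 18 tested factors known to act at the SLC2A4 promoter, 3 were called lower and 0 higher, as in DESeq2, with 9 lower and 5 higher at an unadjusted p below 0.05. They were Klf15, Nr1h3, the oxysterol receptor LXRα (log2 fold change -0.69), and Pparg, the master regulator of fat cell differentiation (-0.59, adjusted p = 5.27e-14, edgeR). With total counts Nr1h3 (-0.50) and Pparg (-0.40) did not pass the fold limit, and the factors then gave 1 lower and 1 higher. With reference genes 2 were called lower. At day 1 the log2 fold change of Nr1h3 was also -0.69, while that of Slc2a4 was 0.16, a value that did not pass the test in each setting.

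The genes whose levels over the 15 libraries most resembled each of the 9 were sought among 12131 genes of at least 1 CPM, by the root mean square difference of centred log2 CPM. For Slc2a4 they were Mdm2 (0.0859), Fzd4 (0.0868) and Zfp395 (0.0881). For Irs1 they were Mtus1, Svep1 and AI646023 (0.0705 to 0.0837), and for Irs2 Ctbs, Tmem66 and Btd (0.0533 to 0.0572). Pik3r1 was nearest to Pde4dip, Uggt1 and Sp1, Akt1 to Xpnpep1, Gatad2a and Tpm1, and Akt2 to Itgb5, Ldha and Vdac1. For Foxo1 they were Asph, Fas and Nrp1, for Grb14 Psap, Pcolce and Atp6ap1, and for Insr Acaca, Zyg11b and Smcr8. None of the 9 was among the 3 nearest genes of another. The likeness is a description over libraries that share 3 group means, and carries no test.

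The library numbers in the titles fall into a series of 11 libraries and another of 4, of which 1 is from day 0, 2 from day 1 and 1 from day 12. The labels do not say what these numbers stand for. In the series of 11 alone, 3 of the 9 genes were called lower and 1 higher at day 12, with log2 fold changes of -0.97 for Irs1, -0.72 for Slc2a4, -0.73 for Foxo1 and 0.65 for Akt1. The other 4 libraries were too few for values of their own.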

How the data were processed

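Raw read counts per gene, deposited as 1 table of 15 libraries, were used as the authors made them. According to the submitters' processing notes, reads were checked with FastQC, aligned to mm10 with TopHat2 2.0.13 and Bowtie2 2.2.1, counted with HTSeq and compared with DESeq2. The counts are not normalized, and strandedness of counting is not given in the sources used here. The authors' DESeq2 comparison tables (mean scaled count, log2 fold change, SE, test statistic, p and adjusted p) and their transformed expression values were not used.

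Groups were taken from the sample labels. All 15 libraries entered 1 fit in edgeR 4.0.16 (limma 3.58.1, R 4.3.3) with TMM scaling, filterByExpr at a minimum count of 10, and the quasi-likelihood test. Benjamini-Hochberg adjustment ran over 14293 genes, and the SE is the log2 fold change divided by the square root of F. The fit was tested on simulated data. Within-library log2 ratios (0.5 added to each count) were compared by exact permutation, with adjustment over 12 tests. Levels per kilobase and positions use GENCODE vM21 merged exons, and promoters are RefSeq windows of GRCm38.p6. No share of counts is reported, so no binomial limits were computed. The 9 genes had at least 559 reads in every library, and rarer genes named beside them rest on fewer.

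The 9 genes, the pathway lists and the marker lists were chosen with earlier results of these data known. Named genes are the 9, their paralogs, up to 3 called genes per direction and list with the largest change at day 12 and a mean of at least 1 CPM, and the 3 nearest genes of each. One gene of this set is not reported here. Rps6kb1, Stxbp3, Slc2a7, Slc2a4rg and the marker Myod1 were not analysed here. Adgre1 was matched through its older symbol Emr1. Other scalings, filters, tests, a replicate block, the library number as a covariate and leaving out each library were tried, with DESeq2 1.42.0 as the other test.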

Additional observations from a re-analysis of the deposited data

Results flagged for a closer look

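Genes and ratios are given here when day 12 differed from day 1 past the call, that is, when the effect of 12 days at 31°C differed from that of 1 day. Day 12 lay below day 1 for Irs1 (log2 fold change -0.652), Irs2 (-0.654) and Slc2a4 (-0.868), all by edgeR's quasi-likelihood test with Benjamini-Hochberg adjustment. With total counts Irs1 (-0.479) and Irs2 (-0.481) did not pass the fold limit, nor did they with reference genes (-0.496 and -0.500). Among the paralogs, day 12 lay below day 1 for Irs3 (-0.735) and Slc2a1 (-0.759), and above it for Foxo4 (0.594). Irs3 did not pass the fold limit with total counts (-0.563) or with reference genes (-0.581). Of the other transporter genes, Slc2a9 (-1.312) and Slc2a3 (-0.766, with overlapping libraries) were also called lower at day 12 than at day 1. Among the 115 further pathway genes tested, 4 were called higher and 9 lower in this comparison, and not all are listed here. The log2 ratio of Akt2 to Akt1 was lower at day 12 than at day 1 by an exact permutation test, at -0.2419.

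In 3 of 66 groups of 5 libraries, 1 library stood far from the other 4 by Dixon's test, where chance gives about 1 in 20. Igf1r was at 69.01 CPM in day 1 library 5, the lowest of its group. The log2 ratio of Irs1 to Irs2 was 0.89 in day 12 library 4, the lowest of its group, and the log2 ratio of Slc2a4 to Slc2a1 was -4.021 in day 0 library 2, the highest of its group.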

How the results depend on the processing

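Of 405 single-gene values with 1 library left out, 400 kept direction and side of the thresholds, and the other 5 are the day 12 values of Irs2. Over the other settings 236 of 270 did. DESeq2, its size factors in edgeR and the library number as a covariate changed no call. With total counts, 1 of the 9 genes was called lower at day 12 and 1 from day 1 to day 12, and the further pathway genes gave 4 higher at day 1. At day 12 that scaling called 11 of them higher and 11 lower, and 2982 of all 14293 genes higher and 1668 lower. Reference genes gave 1 of the 9 lower at day 1, 1 lower from day 1 to day 12, and 1 pathway gene higher at day 1. A mean of at least 10 CPM gave 1 of the 9 lower and 1 pathway gene higher at day 1. Without a fold limit the 9 gave 2 higher and 6 lower after 1 day, 8 lower after 12, and 1 higher and 7 lower between the cool groups. The pathway genes then gave 35 higher and 49 lower, 33 and 58, and 35 and 45 in the same order.

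Directions that reversed were Irs2 at day 1 with reference genes (-0.031), Insr from day 1 to day 12 with total counts (0.025) and reference genes (0.007), Akt2 there with total counts (0.099) and reference genes (0.081), and the ratio of Irs1 to Irs2 there within the larger library number series (-0.0479). The cause was not tested. With 4 against 3 libraries no ratio could pass, so those values say nothing of stability.

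With 1 library left out, the 9 genes gave 3 to 4 lower at day 12. The ratio of Irs1 to Irs2 between day 1 and day 12 ranged from -0.0502 to 0.0527, that of Slc2a4 to Slc2a1 at day 12 from 0.2965 to 0.3737 and between the cool groups from -0.1386 to -0.0764. For Insr to Grb14 the day 1 range was -0.0352 to 0.0752 and the day 12 range 0.1344 to 0.1955.

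Same-number pairs of libraries correlated weakly, with 0 of 15 over 0.1 (-0.0255 to 0.0436). Of the 15 libraries, 5 correlated best with their own number. That count was not set against chance, so a weak pairing by replicate number was not tested. With the replicate number as a block, 1 of the 9 genes was called higher and 4 lower at day 12, and no call changed. Slc2a4 had the fewest reads of the 9, 559 to 1627 per library.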

Other observations

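Besides Foxo4 and Slc2a9, 4 listed pathway genes were called after 1 day and not after 12, Trib2, Sh2b2, Cdkn1b and Cited2, and these were named after their values were seen. Trib2, a pseudokinase of the family that binds AKT, fell from 81.7 ± 6.1 CPM (SD, n = 5) at 37°C to 51.7 ± 1.4 CPM at day 1 and stood at 88.4 ± 1.6 CPM at day 12. Its log2 fold change was -0.66 at day 1 (adjusted p = 2.12e-13, edgeR) and 0.11 at day 12 (adjusted p = 0.00919, edgeR), and day 12 lay above day 1 by 0.77 (adjusted p = 1.3e-14, edgeR). Sh2b2, the adaptor APS that binds the insulin receptor, fell from 9.48 ± 0.51 CPM to 6.2 ± 0.58 CPM at day 1 (log2 fold change -0.61, adjusted p = 4.22e-08, edgeR) and stood at 7.27 ± 0.64 CPM at day 12 (-0.39, adjusted p = 2.74e-05, edgeR), where its libraries still did not overlap those at 37°C. Cdkn1b, the cell cycle inhibitor p27, differed by -0.59 at day 1 and -0.45 at day 12, and Cited2, a transcriptional coregulator, by -0.61 and -0.33.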
